A study of Mus musculus with 9 samples.

Results

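The ADAMTS proteinases are secreted zinc-dependent enzymes that cut proteins of the extracellular matrix. Their RNA was followed here through 9 genes of the family, namely Adamts1, Adamts2, Adamts4, Adamts5, Adamts7, Adamts9, Adamts10, Adamts12 and Adamts15. These 9 were chosen by name, with earlier results of these data known, and make up 9 of the 56748 genes in the count table. A further 10 ADAMTS genes of the table served for comparison. All 9 were among the 13812 genes that passed the filter on low counts, and all 9 also passed it when the 48 h libraries were left out of the filter. The libraries were made from MLO-Y4, an osteocyte-like mouse line derived from bone cells immortalized with a T antigen under the osteocalcin promoter. The cells had shared a transwell (pores of 1.0 µm) with primary articular chondrocytes of C57BL/6J mice 5 to 6 days old, and the membrane kept the cell types apart. The control group met unstimulated chondrocytes, and the 24 h and 48 h groups met chondrocytes that had first received IL-1β at 10 ng/mL for 6 h and were then washed. Each group has 3 libraries.

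The labels do not give the co-culture time of the control, so stimulation and time cannot be told apart in comparisons with it. For the 48 h samples the cell line field reads MLO-Y5, MLO-Y6 and MLO-Y7, where the protocols name MLO-Y4 throughout, and a difference between lines and the 48 h culture cannot be told apart. Nothing in the sources says that libraries of a group came from separate cultures, so the p-values measure the spread between these libraries, which may be technical. In bulk RNA, fewer cells making a transcript and less transcript per cell cannot be told apart.

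ADAMTS enzymes are made as inactive precursors, lose a propeptide to furin-like convertases, and are held to the matrix by thrombospondin repeats. One branch cuts the large proteoglycans aggrecan and versican, and in cartilage ADAMTS4 and ADAMTS5 are known as the aggrecanases whose activity strips aggrecan in osteoarthritis. Another branch removes the amino-terminal propeptides of fibrillar procollagens so that fibrils can assemble. Further members bind and cut the cartilage oligomeric matrix protein COMP, or bind fibrillin in microfibrils.

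The catalytic zinc site is a part that all 9 members share. Its coding sequence is shown because it makes the family relation visible and lets the closeness of the members be judged. Each is written 5′ to 3′ on the strand of its gene, read from GRCm39 with the GENCODE vM39 annotation, with the codons of the zinc-binding histidines and the catalytic glutamate in capitals.
Adamts1: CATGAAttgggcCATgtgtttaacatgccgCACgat
Adamts4: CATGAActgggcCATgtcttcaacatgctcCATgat
Adamts5: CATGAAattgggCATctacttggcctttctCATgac
Adamts9: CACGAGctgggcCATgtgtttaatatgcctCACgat
Adamts15: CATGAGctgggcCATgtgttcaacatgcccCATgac
Adamts2: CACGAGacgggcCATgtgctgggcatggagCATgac
Adamts7: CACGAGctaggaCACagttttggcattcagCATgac
Adamts12: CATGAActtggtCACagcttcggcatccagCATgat
Adamts10: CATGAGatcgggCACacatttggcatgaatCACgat

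In every member this stretch of 36 bases crosses an exon junction, so that the genomic span includes an intron. It lies in coding exons 3 and 4 of Adamts1 (chr16:85596076-85596433, minus strand) and of Adamts4 (chr1:171080779-171081487, plus strand), and in exons 2 and 3 of Adamts5 (chr16:85674900-85684714, minus strand) and of Adamts15 (chr9:30822548-30822986, minus strand). In Adamts9 it lies in exons 8 and 9 (chr6:92882263-92885474, minus strand) and in Adamts10 in exons 9 and 10 (chr17:33757131-33757256, plus strand). Adamts2 (chr11:50666230-50666964), Adamts7 (chr9:90061509-90062696) and Adamts12 (chr15:11241615-11255653), all on the plus strand, carry it in exons 7 and 8. Any 2 members had 20 to 32 of the 36 bases in common, with Adamts1 and Adamts9 alike at 31. Over whole transcripts the longest exact run that a member shared with another ADAMTS gene was 20 to 45 bases, well short of the 150-base reads.

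Reads of other genes at the same place can bear on a member. Adamts7 overlaps Tbc1d2b on the opposite strand over 6045 bases. The libraries were directional, but the sources do not state whether the counting used strand, so the counts of Adamts7 could hold reads of its neighbour. From control to 48 h the log2 fold change was 0.34 for Tbc1d2b against 1.57 for Adamts7. Mean CPM in control, 24 h and 48 h was 85.9, 92.5 and 109 for Tbc1d2b and 10.2, 16.4 and 30.4 for Adamts7. In CPM the rises were thus of like size. Of 5390 stretches of 50 bases in the reference Adamts7 transcript, 0 occurred in a transcript of another gene on either strand. The counted gene model is longer, at 6282 bases, and introns outside annotated transcripts were not searched. The share of stray reads was not tested. The genes that overlap Adamts2 and Adamts9 had at most 8 reads in any library.

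The libraries held 12250628 to 15956441 counted reads in the control, 14440454 to 15558585 at 24 h and 16458398 to 18515456 at 48 h, so those of 48 h were the deepest. Levels are given as CPM, counts scaled to a common depth by the reads in the tested genes and TMM, and differences as log2 fold changes from edgeR with Benjamini-Hochberg adjusted p-values over all 13812 genes and a threshold of 0.05. A count of 3, taken as the floor, equals 0.160 to 0.245 CPM. Counts of the members ran from 1084 to 6711 for Adamts1 and from 1370 to 4892 for Adamts5 down to 36 to 77 for Adamts9 and 5 to 200 for Adamts15, so the last 2 carry the widest errors. The floor covers counting error only, while the intervals of fold changes come from the fit and include the spread between libraries.

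After 48 h of co-culture with stimulated chondrocytes, most of these proteinases were expressed more highly than in the control. Adamts15, Adamts1, Adamts7, Adamts5, Adamts4, Adamts2 and Adamts10 rose, Adamts9 fell, and Adamts12 did not pass the test. Thus 7 of 9 were called higher, where 22.0% of all tested genes were, and 1 of 9 lower, where 24.4% were. Since the 9 were chosen with earlier results of these data known, the shares set beside all tested genes are descriptions. All libraries of 48 h lay above all of the control for the same 7 members, against 25.7% of tested genes, and for no member did they all lie below, against 27.4%. The median log2 fold change was 0.93 over the 9 members and -0.002 over all tested genes. In a joint test of the 3 groups, 8 members passed, with Adamts12 the exception at an adjusted p of 0.602, while 51.9% of tested genes passed. Over 19 alternatives the 7 higher calls at 48 h stood, with every library thinned to the smallest total among them, while 7 of the 19 lost the lower call of Adamts9.

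**Figure D1:**
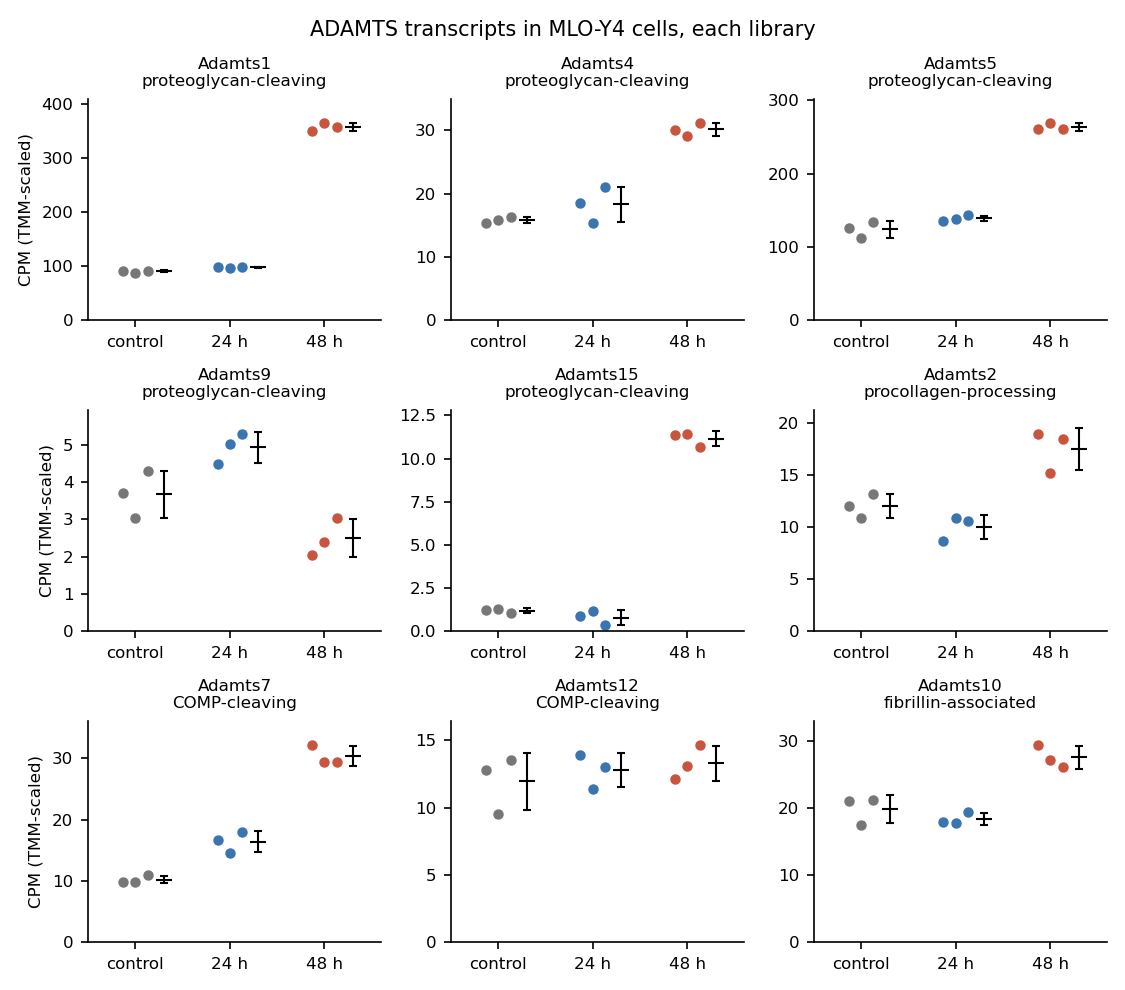
CPM of the 9 ADAMTS genes in each library, 1 panel per gene with its own axis from 0, dots for the 3 libraries of control, 24 h and 48 h, and a bar for mean and SD. The 48 h dots sit above the others for all genes but Adamts9 and Adamts12, as for Adamts1 at 351 to 366 CPM against 88.6 to 91.9 in the control.

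At 24 h the picture was smaller. Adamts7 was the only member called, higher, and 1 of 9 stands against 3.25% of tested genes called higher, while 0 of 9 were lower against 2.90%. At an unadjusted p under 0.05, edgeR counted 4 members higher and 1 lower, against 9.32% and 9.34% of all tested genes. DESeq2 counted 3 higher and 0 lower, against 8.51% and 7.18%, and limma-voom 4 higher and 0 lower, against 9.50% and 9.05%. All libraries of 24 h lay above all of the control for Adamts1, Adamts5, Adamts9 and Adamts7, against 10.3% of tested genes, and below them for Adamts2, against 11.2%. The median log2 fold change was 0.11 over the members and -0.004 over all tested genes.

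Between 24 h and 48 h stimulation was alike, while time and the cell line field of the labels differed. In that comparison 7 members were called higher and 1 lower, against 23.7% and 25.4% of tested genes. The 48 h libraries lay wholly above those of 24 h for 7 members and wholly below for 1, against 29.1% and 30.3%. These 3 comparisons share their libraries, so their values are set side by side and are not independent of each other.

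**Figure D2:**
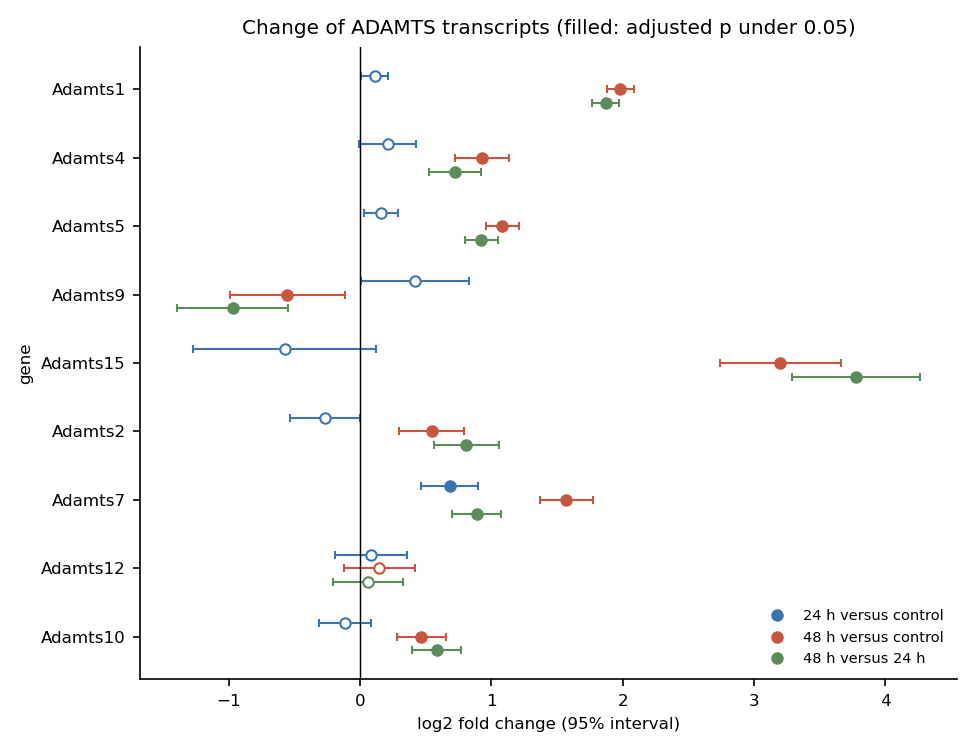
Log2 fold change with its 95% interval for each ADAMTS gene in the comparisons 48 h versus control, 24 h versus control and 48 h versus 24 h, with filled symbols where the adjusted p is under 0.05. Adamts15 at 48 h is the point farthest to the right among comparisons with control, at 3.20, and the filled points below 0 are those of Adamts9, at -0.55 for 48 h versus control and -0.97 for 48 h versus 24 h.

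The proteoglycan-cleaving members Adamts1, Adamts4, Adamts5, Adamts9 and Adamts15 are described first. Adamts1 (ENSMUSG00000022893, chr16:85590715-85600001, minus strand), a proteinase that cuts versican and aggrecan, had CPM of 91.5, 88.6 and 91.9 in the control, 98.3, 97.1 and 98.8 at 24 h, and 351, 366 and 358 at 48 h. Its 3 control and 3 late libraries lay far apart and each set was tight. The rise at 48 h was 3.95-fold, or 1.98 in log2 units (SE 0.049, adjusted p = 4.88e-15), and 0.623% of tested genes had a larger change in size. At 24 h the log2 difference was 0.11, with a 95% interval of 0.01 to 0.22 and an adjusted p of 0.226, although no 24 h library overlapped the control.

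Adamts5 (ENSMUSG00000022894, chr16:85653061-85698716, minus strand) encodes the main aggrecanase of mouse cartilage. It had 126 CPM, 112 CPM and 134 CPM in the control, 136 CPM, 138 CPM and 143 CPM at 24 h, and 260.1 CPM, 269 CPM and 261 CPM at 48 h. The 48 h libraries stood clear of the rest, while those of 24 h began just above the highest control library. Adamts5 rose 2.12-fold at 48 h (log2 1.08, SE 0.059, adjusted p = 7.40e-11). Its log2 difference at 24 h was 0.16 (adjusted p = 0.140) and became 0.23 (adjusted p = 0.0148) without control replicate 3. Adamts1 and Adamts5 are neighbours on chromosome 16, 53.1 kb apart and with no protein-coding gene between them.

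Adamts4 (ENSMUSG00000006403, chr1:171077990-171088206, plus strand), the other aggrecanase, was less abundant. Its control libraries held 15.3, 15.8 and 16.3 CPM, those of 24 h 18.6, 15.4 and 21.0 CPM, and those of 48 h 30.1, 29.1 and 31.2 CPM. The 24 h libraries were spread widely and overlapped the control, whereas 48 h was separate from both. It rose 1.91-fold at 48 h (log2 0.93, SE 0.097, adjusted p = 3.24e-07) and had a log2 difference of 0.21 at 24 h (adjusted p = 0.292).

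Adamts15 (ENSMUSG00000033453, chr9:30810451-30833748, minus strand), a versican- and aggrecan-cutting enzyme, was the rarest member in the control and changed by the largest factor of the 9. Its CPM was 1.26, 1.31 and 1.05 in the control, 0.868, 1.17 and 0.353 at 24 h, and 11.4, 11.4 and 10.7 at 48 h. In reads, these are 14 to 20, 5 to 18 and 191 to 200, so the early groups lie near the floor and overlap while the late one is well measured. The rise at 48 h was 9.20-fold (log2 3.20, 95% interval 2.74 to 3.66, adjusted p = 1.40e-09), and 0.101% of tested genes changed more in size. Against 24 h the log2 fold change was 3.78 (SE 0.23, adjusted p = 3.06e-10), with 0.0434% of tested genes changing more. The 24 h difference from the control was -0.57 (SE 0.33, adjusted p = 0.381).

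Adamts15 lies 20.1 kb from its relative Adamts8, with no protein-coding gene between them, and Adamts8 had 1 read over all 9 libraries.

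Adamts9 (ENSMUSG00000030022, chr6:92749680-92920473, minus strand), a widely expressed versican- and aggrecan-cutting member, went the other way. CPM was 3.70, 3.03 and 4.29 in the control, 4.47, 5.01 and 5.29 at 24 h, and 2.06, 2.40 and 3.04 at 48 h. The 48 h libraries overlapped the control by a narrow margin and lay wholly below those of 24 h. Against 24 h Adamts9 fell by 0.97 on the log2 scale (SE 0.20, adjusted p = 0.00053). Against the control it fell by 0.55 (SE 0.209, adjusted p = 0.0372). That call was lost with DESeq2 (adjusted p = 0.0678) and with only the 2 groups compared in the fit (0.0588). It was also lost on removal of 1 library, which could be the first control (0.0898), the third control (0.154), the first of 48 h (0.141) or the second of 48 h (0.0885).

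Of the procollagen-processing branch, Adamts2 (ENSMUSG00000036545, chr11:50492911-50698400, plus strand) is the member followed here, the enzyme that trims the amino-terminal propeptide of procollagens I and III. Its CPM was 12.1, 10.9 and 13.2 in the control, 8.68, 10.9 and 10.6 at 24 h, and 19.0, 15.3 and 18.5 at 48 h. The 48 h libraries were all above the control, and the 24 h libraries all below it by a margin that vanishes in rounding. Adamts2 rose 1.46-fold at 48 h (log2 0.54, SE 0.117, adjusted p = 0.000856) and 1.75-fold between 24 h and 48 h (log2 0.81, adjusted p = 1.56e-05), while the 24 h difference of -0.27 did not pass (adjusted p = 0.267).

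The COMP-cleaving pair parted. Adamts7 (ENSMUSG00000032363, chr9:90045122-90090124, plus strand) had 9.86, 9.89 and 10.9 CPM in the control, 16.8, 14.6 and 17.9 CPM at 24 h, and 32.2, 29.4 and 29.4 CPM at 48 h, so that the 3 groups were ordered without overlap. It rose 1.61-fold by 24 h (log2 0.68, SE 0.104, adjusted p = 0.000269) and 2.97-fold by 48 h (log2 1.57, SE 0.097, adjusted p = 3.31e-10), and the step from 24 h to 48 h was itself called (log2 0.89, adjusted p = 1.87e-07). Its antisense neighbour Tbc1d2b had a log2 difference of 0.11 at 24 h (adjusted p = 0.319), with a mean of 85.9 CPM in the control and 92.5 at 24 h.

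Adamts12 (ENSMUSG00000047497, chr15:11064876-11349317, plus strand), the closest relative of Adamts7, had 12.8, 9.57 and 13.5 CPM in the control, 13.9, 11.4 and 13.1 CPM at 24 h, and 12.1, 13.1 and 14.7 CPM at 48 h. All 3 groups overlapped. The log2 difference at 48 h was 0.15 with a 95% interval of -0.12 to 0.42 (adjusted p = 0.370), which leaves out a change of the size seen in Adamts7, whose interval was 1.37 to 1.77.

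Adamts10 (ENSMUSG00000024299, chr17:33743178-33772756, plus strand) binds fibrillin-1 and takes part in microfibril assembly. It had 21.0, 17.4 and 21.1 CPM in the control, 17.9, 17.8 and 19.4 CPM at 24 h, and 29.4, 27.1 and 26.1 CPM at 48 h. The early groups overlapped and the late one was above both. It rose 1.38-fold at 48 h (log2 0.47, SE 0.089, adjusted p = 0.000285) and had a log2 difference of -0.12 at 24 h (adjusted p = 0.567).

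Levels were compared between members only after division by gene length, as CPM per kb. In the control the order was Adamts1 at 17.1 ± 0.337 (SD, n = 3), Adamts5 at 11.5 ± 1.05, Adamts4 at 3.29 ± 0.105, Adamts10 at 2.40 ± 0.255, Adamts7 at 1.63 ± 0.095, Adamts2 at 1.29 ± 0.127, Adamts12 at 1.10 ± 0.194, Adamts9 at 0.244 ± 0.042 and Adamts15 at 0.116 ± 0.013 CPM per kb. Among neighbours in this order the libraries overlapped only for Adamts2 and Adamts12. At 24 h Adamts7 (2.61 ± 0.27) was listed above Adamts10 (2.23 ± 0.108) and Adamts12 (1.17 ± 0.116) above Adamts2 (1.08 ± 0.128), and each of these pairs overlapped. At 48 h Adamts1 stood at 67.6 ± 1.46, Adamts5 at 24.4 ± 0.473, Adamts4 at 6.26 ± 0.213, Adamts7 at 4.83 ± 0.258, Adamts10 at 3.34 ± 0.207, Adamts2 at 1.88 ± 0.216, Adamts12 at 1.22 ± 0.118, Adamts15 at 1.08 ± 0.041 and Adamts9 at 0.166 ± 0.033 CPM per kb, with no overlap between neighbours. Adamts15 had thus passed Adamts9, which was last at 48 h. The order depends on the deposited gene lengths, and in CPM without that division Adamts5 came before Adamts1 in the control and at 24 h. Adamts10 then also came before Adamts4 in both, and Adamts7 before Adamts4 at 48 h. The deposited length was 8254 bases for Adamts10, whose reference transcript held 4110 stretches of 50 bases, and 10791 for Adamts5, which held 10742. The order by transcript length was not computed, and the sums and ratios below use the deposited lengths.

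The levels of the 9 members summed to 38.7 ± 2.08 CPM per kb in the control, 42.7 ± 1.40 at 24 h and 110.8 ± 1.30 at 48 h (SD, n = 3). Adamts1 made up 44.3% ± 1.56 of that sum in the control, 43.4% ± 1.07 at 24 h and 61.0% ± 0.609 at 48 h. Adamts5 went from 29.7% ± 1.14 in the control to 22.0% ± 0.202 at 48 h, although its own level was higher there. The ratio of Adamts1 to Adamts5 per kb was 1.49 ± 0.110 in the control, 1.44 ± 0.035 at 24 h and 2.77 ± 0.025 at 48 h. Adamts15 remained a small share, 0.302% ± 0.048 in the control and 0.973% ± 0.037 at 48 h.

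**Figure D3:**
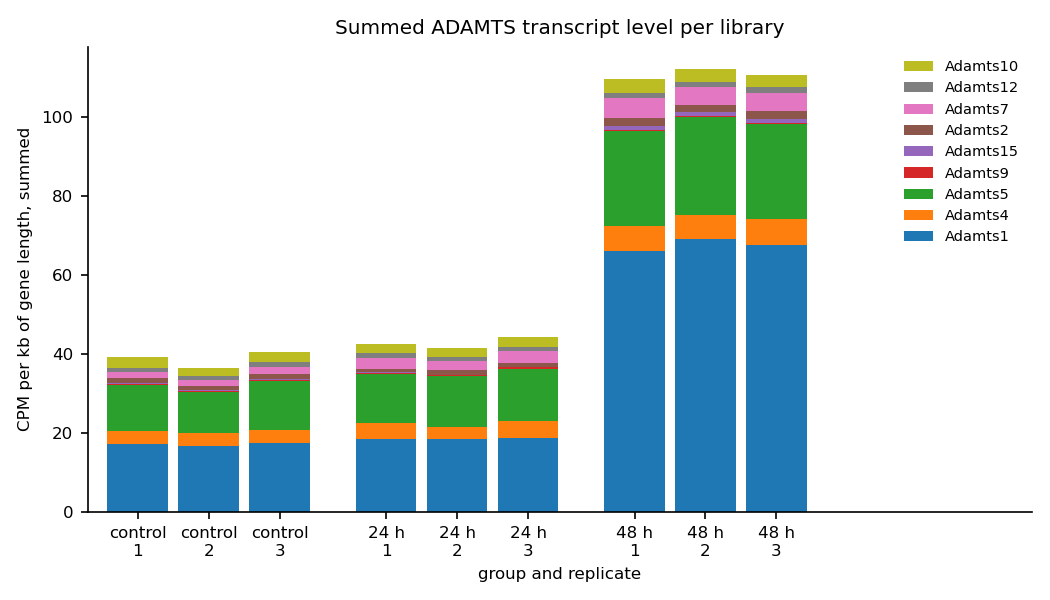
Stacked CPM per kb of the 9 ADAMTS genes in each of the 9 libraries, with 1 colour per gene and the axis from 0. The stacks of the 48 h libraries reach 110.8 on average against 38.7 in the control, and the Adamts1 layer is the thickest in every library.

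Set against each other, the proteoglycan-cleaving members outweighed the procollagen-processing Adamts2 in every library. The 5 former summed to 32.3 ± 1.45, 35.6 ± 0.982 and 99.5 ± 1.81 CPM per kb in control, 24 h and 48 h. Their ratio to Adamts2 was 25.1 ± 1.35 in the control, 33.4 ± 4.21 at 24 h and 53.4 ± 7.47 at 48 h. Single libraries ranged from 23.7 to 26.4, from 29.8 to 38.0 and from 47.9 to 61.9, so the groups did not overlap. Since the sum is carried by Adamts1 and Adamts5, the median log2 level of the 5 minus that of Adamts2 was also taken, and it was 1.35 ± 0.125, 1.82 ± 0.318 and 1.74 ± 0.137. By that measure the 24 h libraries overlapped both the control and the 48 h libraries. The 48 h difference from the control was 0.39 in place of the 1.08 given by the sum on the log2 scale. The ratio to Adamts2 also depends on leaving out Adamts14, the other abundant enzyme of that branch. With Adamts14 added to Adamts2, an alternative chosen after seeing the data, the ratio was 5.89 ± 0.398 in the control, 5.16 ± 0.048 at 24 h and 17.6 ± 1.76 at 48 h, so that all 24 h libraries lay below the control in place of above it and all 48 h libraries still above both. These ratios are descriptions and were not tested.

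Adamts2 is not the only amino-propeptidase of procollagen, and the others are Adamts3 and Adamts14. Adamts3 had at most 1 read in any library. Adamts14, singled out after its values were seen, had a mean of 21.8 ± 1.81 CPM in the control, 30.2 ± 1.09 at 24 h and 19.7 ± 1.44 at 48 h. It rose at 24 h (log2 0.47, adjusted p = 0.00144) and fell by 0.61 between 24 h and 48 h (adjusted p = 7.14e-06), while its difference from the control at 48 h was -0.14 (adjusted p = 0.196). Per kb Adamts14 exceeded Adamts2 by a ratio of 3.27 ± 0.355 in the control, 5.47 ± 0.853 at 24 h and 2.03 ± 0.161 at 48 h. Of the 10 other ADAMTS genes only Adamts14 and Adamts6 were abundant enough to test. Adamts6 was called higher by 0.33 in log2 units (adjusted p = 0.0487) after 48 h, a call that 11 of 19 alternatives lost. Adamts16 had 2 to 4 reads in the control, 2 to 3 at 24 h and 9 to 21 at 48 h and was below the filter. The others had at most 4 reads in any library.

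The ADAMTS-like proteins resemble these enzymes but lack the proteinase domain. Of 7 listed, 2 were tested. Adamtsl5, which binds fibrillin microfibrils, fell by 0.43 on the log2 scale at 24 h (adjusted p = 4.56e-05) and by 0.14 at 48 h (adjusted p = 0.0388), the latter lost under 15 of 19 alternatives.

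The substrates of the proteoglycan-cleaving members were read from a list of 10 genes of the large proteoglycans and the hyaluronan network. The aggrecan gene Acan had 0 reads in all 9 libraries, which allows up to 0.160 to 0.245 CPM in a library. The 5 tested genes had a median log2 fold change of 0.01 at 48 h, with 1 called higher and 1 lower, and of 0.71 at 24 h, with 2 higher. Over all tested genes, 22.0% were called higher and 24.4% lower at 48 h, and 3.25% and 2.90% at 24 h. The counts of this list and of those below are descriptions set beside these shares. Vcan, which encodes versican, had 136 ± 19.7 CPM in the control, 251 ± 19.0 at 24 h and 172 ± 14.2 at 48 h. It rose by 0.88 at 24 h (adjusted p = 1.66e-06), was higher by 0.34 at 48 h (adjusted p = 0.00327) and fell by 0.54 in between (adjusted p = 2.87e-05). Cd44, the hyaluronan receptor, fell by 0.57 at 48 h (adjusted p = 3.34e-08). The hyaluronan synthase gene Has2, chosen after its values were seen, rose at 24 h (log2 0.83, adjusted p = 0.000512) and at 48 h had a difference of -0.23 (adjusted p = 0.202).

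Of 9 fibrillar procollagen genes, which include those of the procollagens I and III that the Adamts2 enzyme trims, 8 were tested. At 48 h, 5 were called higher and 1 lower, against 22.0% and 24.4% of tested genes, with a median log2 fold change of 0.22. At 24 h 2 were higher and 2 lower, against 3.25% and 2.90%, with a median of 0.03. Col3a1 rose most at 48 h (log2 1.13, adjusted p = 2.16e-13), followed by the low-abundance Col11a1 (1.02, adjusted p = 0.000595), Col5a3 (0.69, adjusted p = 6.30e-09) and Col5a2 (0.31, adjusted p = 3.17e-06). The type I chains differed from these. Col1a1 fell by 0.14 at 48 h (adjusted p = 0.0085) and by 0.20 at 24 h (adjusted p = 0.00312). Col1a2 fell by 0.33 at 24 h (adjusted p = 0.000181) and was called higher by 0.12 after 48 h (adjusted p = 0.0419), a call lost under 8 of 19 alternatives.

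Among 7 other genes of procollagen processing, 4 were tested. At 48 h 3 were called higher and 1 lower, against 22.0% and 24.4% of tested genes, with a median of 0.18. At 24 h 1 was lower, against 2.90% of tested genes, and the median was -0.19. Bmp1 and Tll1 encode carboxy-propeptidases, and Pcolce and Pcolce2 encode enhancers of that cleavage. Tll1 rose at 48 h (log2 1.10, adjusted p = 0.000202), as did Pcolce (0.20, adjusted p = 0.00281). Bmp1 was called higher by 0.15 (adjusted p = 0.028), and 3 of 19 alternatives lost that call. Pcolce2 went down, from a mean of 49.2 CPM in the control and 42.1 at 24 h to 10.7 at 48 h (adjusted p = 1.07e-12). Pcolce fell by 0.19 at 24 h (adjusted p = 0.0253), which 7 of 19 alternatives did not keep.

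Other substrates and partners of these enzymes numbered 12, with 11 tested. At 48 h 6 were higher and 1 lower, against 22.0% and 24.4% of tested genes, with a median of 0.19. At 24 h 4 were higher, against 3.25%, with a median of -0.09. The decorin gene Dcn rose at 48 h (log2 1.08, adjusted p = 4.65e-12), as did Thbs2 for thrombospondin-2 (0.79, adjusted p = 1.25e-10) and Nid2 for the basement membrane protein nidogen-2 (0.59, adjusted p = 0.0052). Comp, the substrate after which the Adamts7 and Adamts12 pair is named, was scarce, with 3 to 7 reads in the control, 1 to 4 at 24 h and 12 to 21 at 48 h. It was called higher at 48 h (log2 1.45, adjusted p = 0.0267). Of the 15 alternatives in which Comp could be tested, 4 lost the call. These were without control replicate 1 (0.121), without control replicate 2 (0.0766), with DESeq2 (0.0675) and at an adjusted p under 0.01. Fbn1, which encodes the fibrillin-1 that ADAMTS10 binds, rose at 24 h (log2 0.31, adjusted p = 0.0105, lost without 24 h replicate 3 at 0.0530) and after 48 h was called lower, at -0.19 (adjusted p = 0.0378), lost under 12 of 19 alternatives.

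**Figure D4:**
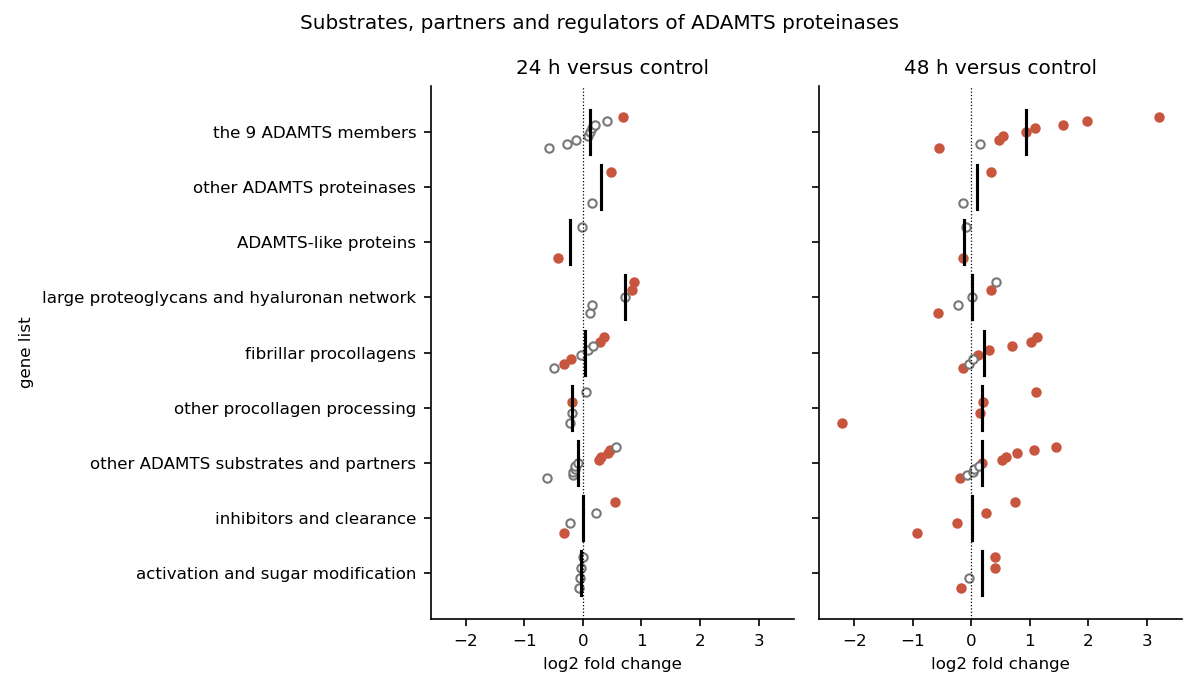
Log2 fold change of each tested gene by list, for 48 h and 24 h versus control, with red dots where the adjusted p is under 0.05 and a black line at the list median. At 48 h the 9 chosen ADAMTS members have the highest median, 0.93. The medians of the lists of substrates, processing genes, inhibitors and activators lie between 0.01 and 0.22. Those of the other ADAMTS proteinases and the ADAMTS-like proteins, with 2 genes tested in each, are 0.09 and -0.12.

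Inhibition and clearance were read from 6 genes, of which 4 were tested. At 48 h 2 were higher and 2 lower, against 22.0% and 24.4% of tested genes, with a median of 0.01. At 24 h 1 was higher and 1 lower, against 3.25% and 2.90%, with a median near 0 (-0.001). Timp3 encodes the tissue inhibitor with the strongest action on ADAMTS4 and ADAMTS5. Its CPM was 15.4 ± 1.87 in the control, 13.3 ± 1.87 at 24 h and 25.9 ± 1.85 at 48 h, a rise by 0.74 at 48 h (adjusted p = 1.70e-05) after a 24 h difference of -0.22 (adjusted p = 0.319). Timp1 moved the other way, with a mean of 215 CPM in the control, 316 at 24 h and 113 at 48 h, and changed by 0.55 at 24 h (adjusted p = 9.22e-07) and by -0.93 at 48 h (adjusted p = 9.30e-11). Timp2 fell by 0.32 at 24 h (adjusted p = 3.08e-06) and by 0.24 at 48 h (adjusted p = 9.83e-06). Lrp1, the receptor that clears ADAMTS4 and ADAMTS5 by endocytosis, rose by 0.26 after 48 h (adjusted p = 0.00782, lost without control replicate 1 at 0.0508 and with DESeq2 at 0.0546).

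Of 6 genes for activation and sugar modification, 4 were tested, with 2 called higher and 1 lower at 48 h (median 0.18). The shares over all tested genes were 22.0% and 24.4%. The median at 24 h was -0.04. Furin, the convertase that removes ADAMTS propeptides, rose at 48 h (log2 0.41, adjusted p = 8.86e-06) and had a difference of -0.03 at 24 h (adjusted p = 0.872). B3glct, which extends the fucose on thrombospondin repeats that Pofut2 places there, rose by 0.41 (adjusted p = 0.00118). Pofut2 fell by 0.17 (adjusted p = 0.0166), a call that 4 of 19 alternatives lost.

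Because chondrocytes make several of these proteinases, their markers were read in the same libraries. Of 13 listed, 5 were tested, and Acan, Matn1, Col9a1, Col9a2 and Ucma had 0 reads in all 9 libraries, while Col2a1, the defining cartilage collagen, had at most 7. The summed marker level was 1681 to 1716 CPM in the control, 1565 to 1649 at 24 h and 2127 to 2216 at 48 h, nearly all of it Prg4 and Sox9. At 48 h this marker sum lay above the control, as did the summed level of the members. At 24 h the marker sum lay below the control, whereas the summed level of the members lay above it. The part of chondrocyte RNA in the change of the members was not tested. At 48 h 3 of the 5 tested markers were higher, namely Prg4 by 0.38 (adjusted p = 8.64e-08), Sox9 by 0.14 (adjusted p = 0.0449) and Comp as above, and Matn3 was lower (log2 -1.25, adjusted p = 0.00155). Over all tested genes 22.0% were called higher and 24.4% lower at 48 h. Of 12 osteocyte and osteoblast markers 8 were tested, with summed levels of 3023 to 3191, 3088 to 3122 and 3891 to 3960 CPM. The osteocyte markers Mepe and Fgf23 had 0 reads, and Dmp1 and Sost at most 6, whereas Phex, Pdpn and Gja1 were expressed at mean levels of 14.6, 212 and 1498 CPM in the control. At 48 h Gja1 was higher by 0.69, Phex by 0.43 and Pdpn by 0.15, while Sp7 (-1.07), Bglap (-0.59), Alpl (-0.38) and Col1a1 were called lower. Macrophage and osteoclast markers, of which 3 of 6 were tested and Adgre1 was at 0, summed to 131 to 149, 102 to 103 and 112 to 130 CPM. Nearly all of that sum was Ctsk, with means of 136, 97.9 and 112 CPM, and Ptprc had at most 1 read in any library. Endothelial markers summed to at most 0.521 CPM, with 0 of 3 tested.

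The genes whose pattern over the 9 libraries was most like that of a member were found by Pearson's r of log2 CPM, as a description. The libraries fall into 3 groups and share their scaling, so r mostly follows the group means. For Adamts1 they were Dab2 and Ndrg1 (both 0.997), for Adamts4 Ulk1 (0.990) and Trem2 (0.988), and for Adamts5 Stc1 (0.997) and Gja1 (0.996). For Adamts15 they were Dazap2 (0.992) and Scara3 (0.989), for Adamts7 Prickle1 (0.995) and App (0.994), for Adamts10 Crbn (0.985) and Eva1b (0.982), and for Adamts2 Gm7665 (0.983) and Gstz1 (0.982). Adamts9 was matched best by Nup155 (0.971) and Cep152 (0.970). The fold changes of such genes need not be alike, as that of Dazap2 at 48 h was 0.28 on the log2 scale against 3.20 for Adamts15.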

How the data were processed

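RNA of MLO-Y4 cells from 3 groups of 3 libraries was read as 150-base paired ends from directional libraries. Per the labels and the study's methods, the authors trimmed the reads, aligned them with HISAT2 to GRCm39 and counted them per gene with featureCounts (2.06 in the submitters' processing notes; the sources differ on the version, and the methods also name RSEM). The strand setting and the treatment of reads with several matches are not given in the sources used here. The authors deposited raw counts for 56748 genes, with no normalization, plus gene coordinates and lengths. There were 0 columns of other samples.

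Counts were filtered with filterByExpr (minimum count 10), scaled by TMM and fitted with edgeR 4.0.16 in R 4.3.3 (glmQLFit, glmQLFTest, group as the only term, all 9 libraries in 1 fit, Benjamini-Hochberg over 13812 genes), as the study's methods also used edgeR on counts. The script was tested on 5 simulated sets with 200 changed genes each, in the comparison of 48 h with control. It recovered 84.8% of the changed genes, and 71.1% of those changed 1.5-fold. Of its calls, 8.2% were unchanged genes. Each set changed 200 of 13812 genes, whereas 6408 were called at 48 h in the data, so these rates need not hold there. Reads in tested genes were 99.9% of all. Standard errors came from the F statistic, intervals from its t quantile at 95%, and log2 CPM used a prior count of 2. CPM per kb divides CPM by the deposited gene length. DESeq2 1.42.0 and limma 3.58.1 served as alternatives. Chi-square statistics per degree of freedom between replicates were 2.31 to 8.40, so no 2 libraries agreed within sampling noise.

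The members and the gene lists were chosen with earlier results of these data known. The text names all 9 members, up to 4 called genes per list by size of change at 48 h, and Acan, Vcan, Col1a1, Col1a2, Bmp1, Timp3, Furin, Lrp1, Comp and Fbn1. For each member that passed the joint test, it names the 2 genes of at least 5 CPM with the highest correlation. Thinning of all libraries to the smallest total and the ratio with Adamts14 were added after seeing the data. Sequences were read from GRCm39 with GENCODE vM39, whose gene models differ a little from those in the count table. Protein sequences were not used here. One overlapping gene and the search of promoters are not reported here.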

Additional observations from a re-analysis of the deposited data

Results flagged for a closer look

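The change at 48 h differed from the change at 24 h, both relative to the control, for 8 of the 9 members, as tested by edgeR on 48 h against 24 h (Benjamini-Hochberg adjusted p from 1.34e-14 to 0.00053). In log2 units the difference was 3.78 for Adamts15, 1.87 for Adamts1, 0.92 for Adamts5, 0.89 for Adamts7, 0.81 for Adamts2, 0.72 for Adamts4 and 0.58 for Adamts10, and it was -0.97 for Adamts9, whose level was listed higher at 24 h and lower at 48 h. The share of all tested genes called in this comparison, 23.7% higher and 25.4% lower, is large.

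Among the substrates and the other family members the same test gave -0.61 for Adamts14, 0.29 for Adamtsl5, -0.69 for Cd44, -0.54 for Vcan and -1.07 for Has2. Of the procollagen genes and their processing, it gave 0.84 for Col3a1, 0.84 for Col11a1, 0.60 for Col5a3, 0.45 for Col1a2, -1.98 for Pcolce2, 1.29 for Tll1 and 0.39 for Pcolce. Other substrates differed by 2.06 (Comp), 0.81 (Dcn), 0.93 (Thbs2), 0.76 (Nid2) and -0.50 (Fbn1). For inhibitors and activators the values were -1.49 for Timp1, 0.97 for Timp3, 0.085 for Timp2, 0.41 for B3glct and 0.44 for Furin. That of Timp2 was lost under 8 of 19 alternatives. Groups of 3 libraries were too small to look for single outlying libraries.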

How the results depend on the processing

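For each comparison 19 alternatives were run. Comp passed the filter in 15 of them for 48 h versus control, 14 for 24 h versus control and 15 for 48 h versus 24 h. Of 27 comparisons of members, 23 kept both their sign and their side of the threshold under all alternatives. Those that did not were Adamts9 at 48 h versus control, with log2 fold changes from -0.72 to -0.42 and adjusted p from 0.019 to 0.154, Adamts5 at 24 h, which was called without control replicate 3, and Adamts12, whose small differences turned sign. Adamts12 ranged from -0.0405 to 0.182 at 24 h and from -0.0145 to 0.125 for 48 h versus 24 h when each library was left out.

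The count of members lower at 48 h was 1, and 0 with DESeq2, with only the 2 groups compared and at an adjusted p under 0.01, and ranged from 0 to 1 over single libraries left out. The count of members higher at 24 h ranged from 1 to 2. Over all genes at 24 h, 759 were higher with no filter and 259 at an adjusted p under 0.01, with 295 to 873 over libraries left out, and 254 were lower with only the 2 groups, 205 at an adjusted p under 0.01 and 222 to 602 over libraries left out. The widest of these counts, 873 and 602, came without control replicate 3, and the fewest without 24 h replicate 3 (295) and 24 h replicate 1 (222). The log2 ratio of proteoglycan-cleaving members to Adamts2 at 48 h minus control was 1.08 by the sum, 0.387 by the median and 1.58 with Adamts14 added to Adamts2, which turned the 24 h value from 0.41 to -0.187. The cause of these shifts was not tested beyond what each alternative changes.

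Of 84 comparisons of the named genes of the lists, 63 kept both their sign and their side of the threshold. The sign turned in 4, none of them called. B3glct at 24 h was -0.016 with library size alone and -0.0701 to 0.112 over libraries left out, over which Tll1 at 24 h ranged from -0.362 to 0.0419, Furin at 24 h from -0.0545 to 0.0241 and Lrp1 for 48 h versus 24 h from -0.0254 to 0.0839.

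The replicate numbers share only a number across groups. The correlation of deviations between samples of the same number was -0.0493 to 0.0775 and between samples of different numbers -0.0970 to 0.0949. With a replicate block, 7 members were higher at 48 h, as without it, and 6468 in place of 6408 genes were called, with 958 in place of 849 at 24 h and 6810 in place of 6782 between 24 h and 48 h. Lrp1 at 24 h was called with the block (log2 0.23, adjusted p = 0.00378). Depth limits Adamts15 before 48 h, Adamts9 throughout, and Comp.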
